A study of Mus musculus with 49 samples.

Results

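Interferon gamma and antigen presentation genes were followed as a group of 33 genes, chosen from a list of Entrez gene IDs, out of 24475 gene IDs counted in each of 2 tables, 1 for skin and 1 for colon. The list holds 7 genes of the MHC class II pathway, 3 of MHC class I, 3 of peptide loading, 5 of the immunoproteasome, 3 transcriptional regulators, 5 guanylate-binding proteins, 5 immunity-related GTPases and 2 effectors. All 33 IDs were present in both tables. In colon all 33 were abundant enough to be tested, and in skin 32 were, the exception being Ido1.

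The study profiled messenger RNA of DITRA-like mice, a model of a human inflammatory disease caused by loss of the natural antagonist of the interleukin-36 receptor. Skin came from mice treated with imiquimod (IMQ), which inflames skin through Toll-like receptors, and colon from mice given dextran sulfate sodium (DSS), which injures the colonic epithelium. Mice under IMQ or DSS received PBS or 1 of 2 antibodies: anti-IL-36R, raised against the human receptor of interleukin-36, or anti-IL-12p40, which binds a mouse subunit common to the cytokines IL-12 and IL-23. The comparisons ask how these genes responded to each kind of inflammation and to each antibody. The skin groups were water with PBS (3 libraries), IMQ with PBS (6), IMQ with anti-IL-36R (7) and IMQ with anti-IL-12p40 (7), and the colon groups were water with PBS (5), DSS with PBS (6), DSS with anti-IL-36R (8) and DSS with anti-IL-12p40 (7). Every animal, the water controls included, is labelled as the DITRA model on a mixed strain of 75% C57BL/6NTac and 25% 129S6/SvEvTac. No group of mice without the model was analysed here, and alleles, ages, doses and times are not given in the labels. The labels give each library its own number but do not say that the libraries came from separate animals, so the p-values measure the spread between these libraries.

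Interferon gamma, made mainly by T cells and natural killer cells under the influence of interleukin-12, signals through its receptor to the nucleus. It raises the machinery that presents peptides. Immunoproteasome subunits cut proteins into peptides, and the TAP transporter carries the peptides to the compartment where MHC class I molecules are loaded. The coactivator CIITA turns on the MHC class II genes of antigen-presenting cells. The guanylate-binding proteins and immunity-related GTPases, which attack the vacuoles of intracellular microbes, belong to the same response, as do the tryptophan-degrading enzyme IDO1 and the inhibitory ligand PD-L1, encoded by Cd274.

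Short elements through which that response can be read were searched for in the promoters of these genes. The 8 shown were picked from those with a match, among the class II genes and the GTPases. These classes were chosen for their fold changes in the data. RefSeq promoters (GRCm38.p6) were found for 25 of the 33 members, and the 250 bases before each start were searched on both strands. H2-Aa lies at chr17:34287824-34287943 on the minus strand and H2-Eb1 at chr17:34305747-34305866 on the plus strand, each window ending at the base before the start. They encode the alpha chain of I-A and the beta chain of I-E, and the capitals mark the Y box, CTGATTGG.
H2-Aa: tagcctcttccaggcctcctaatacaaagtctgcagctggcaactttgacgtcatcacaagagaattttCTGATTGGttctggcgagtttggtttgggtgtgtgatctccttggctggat
H2-Eb1: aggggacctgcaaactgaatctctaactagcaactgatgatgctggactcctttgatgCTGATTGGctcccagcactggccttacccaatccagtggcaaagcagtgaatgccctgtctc
The Y box was present in 3.83% of all 32851 promoters searched and in 5 of the 25 members (Psmb9, Tap1, H2-Aa, H2-Eb1 and H2-D1). Of the 5 class II members with a promoter only 2 had it, H2-Aa and H2-Eb1, which are those shown.

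For the GTPases the capitals mark the core of an interferon-stimulated response element (GAAA, then any 2 bases, then GAAA) on either strand (overlapping matches are joined, and a match on the other strand is capitalised as it reads here), and, where present, TTCNNNGAA, the gamma-activated site. Gbp2 (chr3:142620543-142620662, plus strand), Gbp3 (chr3:142559924-142560043, plus strand), Irgm1 (chr11:48871421-48871540, minus strand), Igtp (chr11:58199436-58199555, plus strand), Irgm2 (chr11:58214857-58214976, plus strand) and Tgtp1 (chr11:48992247-48992366, minus strand) are shown.
Gbp2: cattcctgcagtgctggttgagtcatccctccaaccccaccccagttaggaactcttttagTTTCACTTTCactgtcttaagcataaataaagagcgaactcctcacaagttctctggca
Gbp3: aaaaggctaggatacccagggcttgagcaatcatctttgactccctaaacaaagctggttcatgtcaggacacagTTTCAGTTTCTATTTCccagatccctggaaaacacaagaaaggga
Irgm1: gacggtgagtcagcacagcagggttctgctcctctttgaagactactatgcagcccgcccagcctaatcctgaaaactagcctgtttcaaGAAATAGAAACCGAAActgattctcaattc
Igtp: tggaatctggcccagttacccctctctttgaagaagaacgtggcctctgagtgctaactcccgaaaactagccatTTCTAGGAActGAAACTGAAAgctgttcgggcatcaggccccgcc
Irgm2: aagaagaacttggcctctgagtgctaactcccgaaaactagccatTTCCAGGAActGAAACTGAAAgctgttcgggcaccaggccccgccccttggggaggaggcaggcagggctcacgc
Tgtp1: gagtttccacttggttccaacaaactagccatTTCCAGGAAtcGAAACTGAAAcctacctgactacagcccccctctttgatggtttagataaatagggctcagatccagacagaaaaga
The interferon-stimulated core occurred in 2.98% of all promoters, in 10 of the 25 members and in 8 of the 8 GTPase members with a promoter. TTCNNNGAA occurred in 7.02% of all promoters, in 7 of the 25 members and in 5 of those 8. Igtp and Irgm2, neighbours on chromosome 11, share an unbroken run of 38 bases in these windows. The shares of all promoters count each promoter separately, whereas a member was counted once if any promoter of it matched, so the units differ. A match is a description of letters, and binding was not measured.

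Library totals were 14720000 to 19680000 estimated counts in skin and 15080000 to 18660000 in colon. Levels are given as CPM, each gene's count relative to the library total after TMM scaling. Keratin and cornified envelope markers of skin summed to at least 29303 CPM in every skin library, and colon epithelial markers to at most 10.9 CPM there against at least 2877 CPM in every colon library, so each tissue matched its label. Colon libraries stood apart in 2 cases: DSS with PBS replicate 6 held 1498 CPM of Krt5 and 1069 CPM of Krt14, epidermal keratins that reached at most 11.1 and 16.3 CPM in the other colon libraries, and water replicate 4 held 46396 CPM of the mucin gene Muc2 against 2502 to 4100 CPM in the other water libraries. Colon results are therefore also given without those libraries. RSEM splits reads that fit several genes, and 20 members (among them H2-K1, H2-D1, H2-Ab1, H2-Eb1, Cd74, Gbp2, Igtp and Tgtp1, which has a near copy in Tgtp2) had values that were not whole in nearly all libraries, so their counts are less certain. H2-DMa, Ctss, B2m, Psmb8, Psmb9, Psmb10, Psme1, Nlrc5 and Ido1 were whole in all libraries.

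In the colon, DSS raised almost the whole group. Of the 33 members, 30 rose and 0 fell between DSS with PBS and water with PBS by edgeR's quasi-likelihood test with a Benjamini-Hochberg adjusted p under 0.05, where 17.6% of all 15731 genes tested rose and 14.7% fell. The median log2 fold change of the members was 2.06, with a range of 0.35 to 4.77, and that of all genes was -0.03. The 3 members that did not pass were Tapbp, Psmb10 and Psme2, at log2 fold changes of 0.35, 0.46 and 0.41. Without the 2 libraries that stood apart, 27 members rose. Libraries of the DSS group lay wholly above the water libraries for 6 members (H2-D1, Tap1, Psmb8, Nlrc5, Irf1 and Iigp1), where 13.1% of all genes did not overlap.

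**Figure D1:**
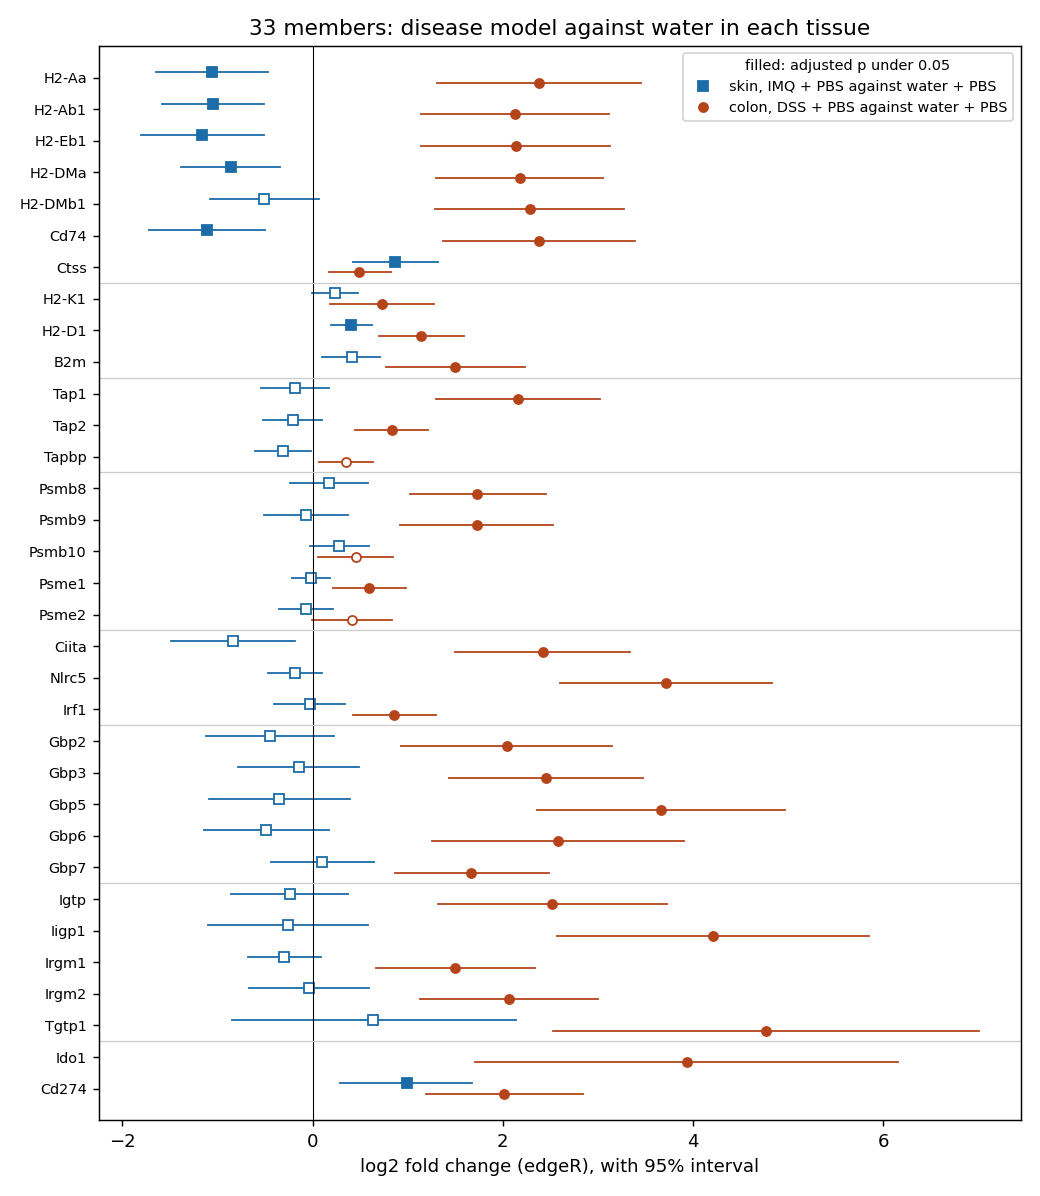
Log2 fold change (x axis, edgeR, bars are 95% intervals) of each member for IMQ with PBS against water with PBS in skin (squares) and DSS with PBS against water with PBS in colon (circles), grouped by role, with filled symbols at an adjusted p under 0.05. The colon values of all 33 members lie above 0, against 46.3% of all genes. In skin 23 of the 32 values lie below 0, against 52.7% of all genes, and no fall passed without water replicate 3.

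The class II molecules, which show peptides to CD4 T cells, rose in the colon in all 7 of their listed genes. Cd74 encodes the invariant chain that guards the class II groove. It measured 304, 316, 166, 287 and 274 CPM in the 5 water libraries and ranged from 133 to 2435 CPM in the DSS libraries, with a median of 1371. Of the 6 DSS libraries 5 were above every water library, and replicate 2, at 133 CPM, was below all of them. The log2 fold change of Cd74 was 2.38 (SE 0.516, adjusted p = 0.00111). H2-Aa followed the same course, from 69.3 to 131 CPM in water and from 33.4 to 949 CPM under DSS, with a log2 fold change of 2.38 (SE 0.546, adjusted p = 0.00185). H2-Ab1, H2-Eb1 and the peptide exchange genes H2-DMa and H2-DMb1 rose by 2.13 to 2.28 on the log2 scale. Ctss, the protease that trims the invariant chain, rose least, by 0.49, and did not pass without the 2 libraries that stood apart (0.29, adjusted p = 0.189).

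All 3 regulators rose. Nlrc5, the coactivator of class I genes, had 5.98, 5.40, 2.51, 5.23 and 4.12 CPM in water and 10.4 to 101 CPM under DSS, with a median of 74.4. No DSS library overlapped the water libraries, although replicates 2 and 4, at 10.4 and 25.6 CPM, were well below the other 4 DSS libraries. Its log2 fold change was 3.71 (SE 0.57, adjusted p = 2.70e-05) and stayed between 3.26 and 3.94 in all 17 alternatives tried. Ciita, the class II coactivator, rose by 2.42 (SE 0.469, adjusted p = 0.000385), from 8.59 to 16.3 CPM in water to 4.24 to 102 CPM under DSS, and Irf1, a transcription factor induced by interferons, rose by 0.86 (adjusted p = 0.0046).

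Among class I genes, the heavy chains H2-K1 and H2-D1 and the light chain B2m all rose, by 0.73, 1.14 and 1.5 on the log2 scale. H2-D1 measured 447, 400, 377, 513 and 478 CPM in water and 619 to 1462 CPM under DSS, so the groups did not overlap. The rise of H2-K1 was near the threshold (adjusted p = 0.0489) and did not pass in 11 of 17 alternatives, where its adjusted p reached 0.152. Tap1, a subunit of the peptide transporter, rose from 22.2 to 34.4 CPM in water to 36.8 to 198 CPM under DSS (log2 fold change 2.16, SE 0.438, adjusted p = 0.000589), and its partner Tap2 rose by 0.83.

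Of the 5 immunoproteasome genes 3 rose. The catalytic subunits Psmb8 and Psmb9 each had a log2 fold change of 1.73, whereas the activator subunit Psme1 rose by 0.59 and Psmb10 and Psme2 did not pass. Psmb9 measured 12.6, 11.9, 11.2, 10.3 and 17.1 CPM in water and 16.7 to 69.3 CPM under DSS, with only DSS replicate 2 inside the water range. A list of 15 other proteasome genes gave 0 called genes, with log2 fold changes from -0.07 to 0.20. It holds Psmb5, Psmb6 and Psmb7, whose subunits the immunoproteasome subunits replace. Among GTPases and effectors, 5 of 5 guanylate-binding proteins, 5 of 5 immunity-related GTPases and both effectors rose. The largest rises of all members were those of Tgtp1, Iigp1 and Ido1, and the other genes of these roles rose less than the regulator Nlrc5.

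Tgtp1, an immunity-related GTPase, had the largest log2 fold change of the 33 (4.77, SE 1.14, adjusted p = 0.0026). It measured 5.06, 2.42, 0.427, 0 and 2.06 CPM in water and 2.39 to 104 CPM under DSS, with a median of 68.9. Iigp1, another GTPase of this family, rose by 4.21 (SE 0.835, adjusted p = 0.000477), from 4.70 to 7.49 CPM in water to 12.3 to 200 CPM under DSS. Gbp5, a guanylate-binding protein that promotes inflammasome activity, rose by 3.66 (SE 0.665, adjusted p = 0.00019), with 3.55 to 5.55 CPM in water and 43.7, 4.47, 54.5, 17.3, 111 and 112 CPM in DSS replicates 1 to 6. Here DSS replicate 2 lay inside the water range and replicates 5 and 6 at the top. Gbp6 rose by 2.58, and Ido1 by 3.93 (SE 1.13, adjusted p = 0.0102), from 0.187 to 4.24 CPM in water to 2.21 to 41.5 CPM under DSS. The highest water value of Ido1, 4.24 CPM, was that of the Muc2-rich replicate 4.

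**Figure D2:**
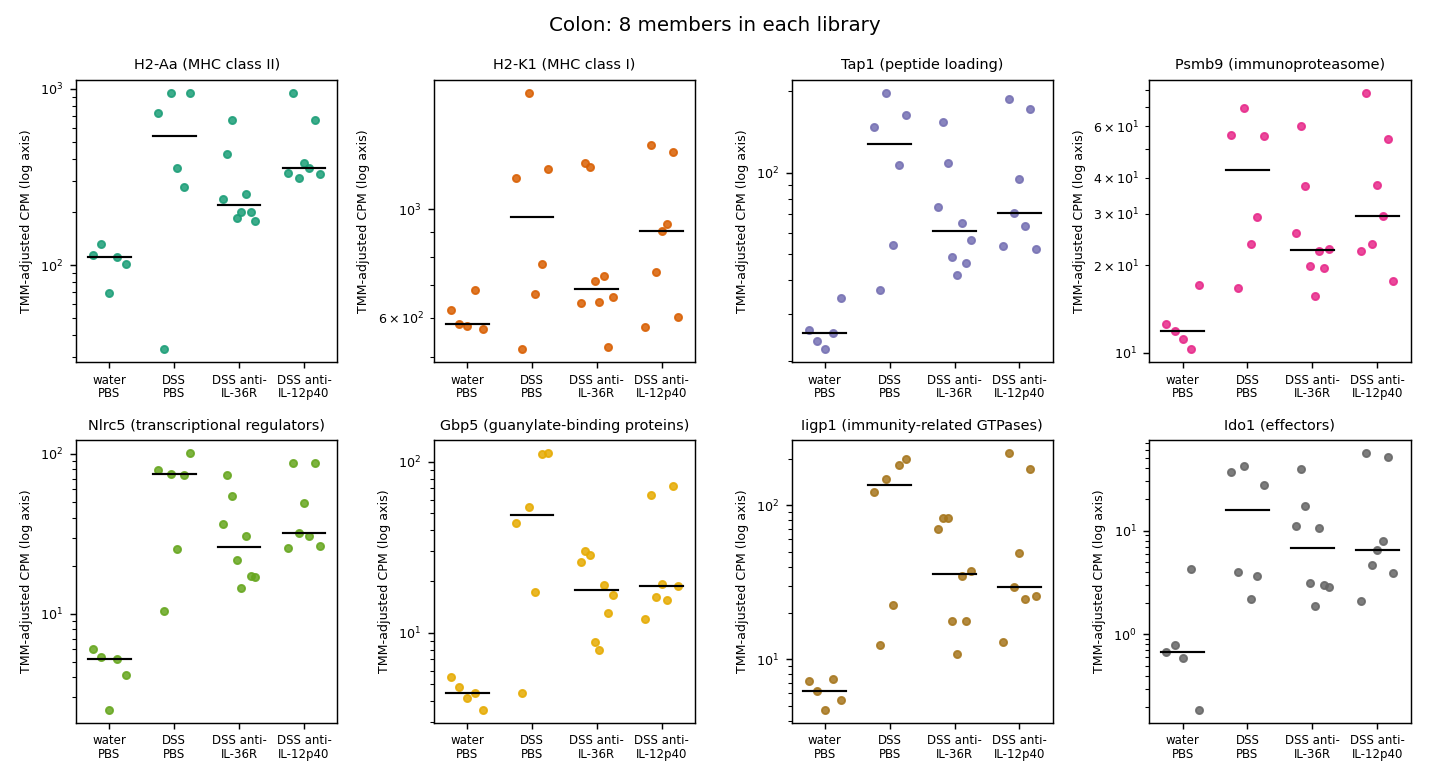
Level of 8 members, 1 for most roles, in each colon library (points, TMM-adjusted CPM on a log axis), with the group median as a bar. Nlrc5 lies between 2.51 and 5.98 CPM in water and at 10.4 CPM or more in every DSS library with PBS, and for Gbp5 the DSS libraries with PBS spread from 4.47 to 112 CPM.

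The 6 DSS libraries with PBS differed strongly among themselves, and they did so together across members. Replicate 2 was the lowest of the 6 in 28 of 33 members, against 24.2% of all genes tested. Replicate 3 was the highest in 19, against 8.68% of all genes, and replicate 6 in the other 14, against 22.6%. A marker of T cells moved in the same libraries. Cd3e measured 0.716 CPM in replicate 2 and 5.79 to 14.8 CPM in the other 5. Over the whole lists, B cell markers rose in 6 of 6 genes (summed 15.5 to 96.9 CPM in water, 28.6 to 524 CPM under DSS) and T and NK cell markers in 8 of 9 (11.8 to 18.2 and 8.17 to 105 CPM), macrophage and monocyte markers in 6 of 7 (74.3 to 216 and 239 to 913 CPM), neutrophil markers in 5 of 6 (4.52 to 83.1 and 200 to 2892 CPM), and dendritic cell markers in 4 of 7 tested (16.8 to 22.9 and 10.4 to 89.3 CPM). In bulk tissue, more cells of a type and more RNA per cell cannot be told apart, and the part of these cells in the members' rise was not tested.

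Genes upstream of the members also rose in colon. Ifng itself measured 2.67, 0, 1.38, 0, 3.25 and 5.79 CPM in the 6 DSS libraries with PBS and at most 0.0707 CPM in water, and it rose (adjusted p = 0.00684). Replicates 2 and 4, which had no Ifng count, were the 2 lowest in 21 of 33 members, among them all 10 GTPases, but in 0 of the 7 class II members. There replicate 5, with 3.25 CPM of Ifng, was below replicate 4 in all 7, as for Cd74 (798 against 958 CPM). Over all genes, replicate 2 alone was the lowest in 24.2% and replicate 4 in 7.31%. The share of all genes with both as the lowest was not computed, and a link of the members to Ifng was not tested. Of 14 genes for the source and receptor of interferon gamma 11 rose, including Stat4 (2.84, adjusted p = 1.84e-05), Il12rb1 (2.80), Il12b (3.82), which encodes IL-12p40, and the feedback inhibitor Socs1 (1.96). The receptor genes Ifngr1 and Ifngr2 had log2 fold changes of -0.13 and -0.09 and were not called.

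Downstream chemokines and other induced genes rose in 13 of 14 cases. Cxcl9, a T cell chemokine, had 0.16 to 1.48 CPM in water and 1.31 to 102 CPM under DSS (log2 fold change 5.94, adjusted p = 0.00107), and Cxcl10 rose by 4.94. The serpin Serpina3g rose by 4.27 (adjusted p = 1.25e-06), the adhesion molecule Icam1 by 2.43 (adjusted p = 1.32e-06) and the nitric oxide synthase Nos2 by 6.99 (adjusted p = 7.60e-06). Of 11 further GTPases 9 rose, including Gbp9 (2.18), Tgtp2 (3.80), Gm12250 (3.86) and Gbp4 (2.70). Of 15 further class I genes 8 rose, including H2-T24 (2.41), H2-M3 (1.24), H2-Q7 (3.11) and H2-Q6 (2.64). Of 11 further class II genes 8 rose, led by Marchf1 (2.48), a ligase that removes class II from the surface, and by the protease genes Lgmn (1.41) and Ctsb (0.77), and 1 fell, the class II promoter factor Rfxank (-0.63). Among 18 genes stimulated by type I interferons 12 rose, including Zbp1 (2.94), Ifit2 (2.06), Bst2 (1.39) and Oas2 (2.97).

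In skin, members were called no more often than all genes under IMQ, and no GTPase passed. The members that fell were class II genes, and none of them passed without water replicate 3. Of 32 members tested, 3 rose and 5 fell between IMQ with PBS and water with PBS, where 15.5% and 17.5% of all 15345 genes did so. The median log2 fold change of the members was -0.18, against -0.03 for all genes. At an unadjusted p under 0.05 there were 10 members, against 44.7% of all genes. Libraries did not overlap for 6 members, the 5 that fell and H2-D1, where 26.7% of all genes did not overlap.

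The 5 members that fell all belong to the class II pathway: H2-Eb1 (-1.16, SE 0.329, adjusted p = 0.011), Cd74 (-1.11, SE 0.31, adjusted p = 0.00991), H2-Aa (-1.06, SE 0.302, adjusted p = 0.0108), H2-Ab1 (-1.05, SE 0.274, adjusted p = 0.0067) and H2-DMa (-0.86, SE 0.264, adjusted p = 0.0168). Cd74 measured 434, 478 and 1005 CPM in the 3 water libraries and 191 to 421 CPM under IMQ, with a median of 294. H2-Aa measured 203, 223 and 438 CPM in water and 88.7 to 196 CPM under IMQ. Every IMQ library was below every water library, and water replicate 3 was far above the other 2. That replicate was the highest of the 3 in all 32 members, against 35.2% of all genes, and without it 6 members rose, none fell and none of these 5 genes passed, at log2 fold changes of -0.63 for H2-Eb1 (adjusted p = 0.203), -0.62 for Cd74 (0.180), -0.63 for H2-Aa (0.172), -0.60 for H2-Ab1 (0.141) and -0.46 for H2-DMa (0.251). Limma-voom called H2-Ab1 alone of these 5 (-0.83, adjusted p = 0.0404), with H2-Eb1 at -0.88, Cd74 at -0.86, H2-Aa at -0.83 and H2-DMa at -0.65. Ciita, the regulator of these genes, had 20.3, 16.9 and 47.3 CPM in water and 10.8 to 22.6 CPM under IMQ and was not called (-0.84, adjusted p = 0.0572).

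Lists of immune cell markers moved in different directions under IMQ. Dendritic and Langerhans cell markers fell in 6 of 8 genes, their summed level being 55.6, 58.4 and 118 CPM in water and 12.6 to 31.1 CPM under IMQ. Flt3 fell by 2.29 on the log2 scale, Xcr1 by 2.58 and the Langerhans cell lectin Cd207 by 1.32, and Clec9a, a marker of cross-presenting dendritic cells, was near 0 under IMQ (mean 0.023 CPM against 1.496 CPM in water). T and NK cell markers fell in 4 of 8 tested (summed 23.8 to 37.2 CPM in water, 8.88 to 18.8 CPM under IMQ), whereas macrophage and monocyte markers rose in 4 of 7 (384 to 776 and 412 to 1129 CPM), neutrophil markers in 4 of 4 tested and B cell markers in 2 of 3 tested. The highest dendritic cell sum, 118 CPM, was in water replicate 3. The part of these cells in the fall of class II was not tested.

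The 3 members that rose in skin were Ctss, H2-D1 and Cd274. Ctss measured 68.3, 77.0 and 146 CPM in water and 94.7 to 212 CPM under IMQ, with a median of 193 (log2 fold change 0.87, SE 0.228, adjusted p = 0.00672). It differed from the other class II genes in direction, and only IMQ replicate 1 overlapped the water libraries. H2-D1 measured 569, 674 and 729 CPM in water and 773 to 942 CPM under IMQ (0.40, SE 0.109, adjusted p = 0.00818). Cd274 rose by 0.99 (SE 0.355, adjusted p = 0.0365), from 7.61 to 20.9 CPM to 17.1 to 45.1 CPM, and did not pass in 7 of 16 alternatives. B2m was just outside the threshold (0.41, adjusted p = 0.051).

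**Figure D3:**
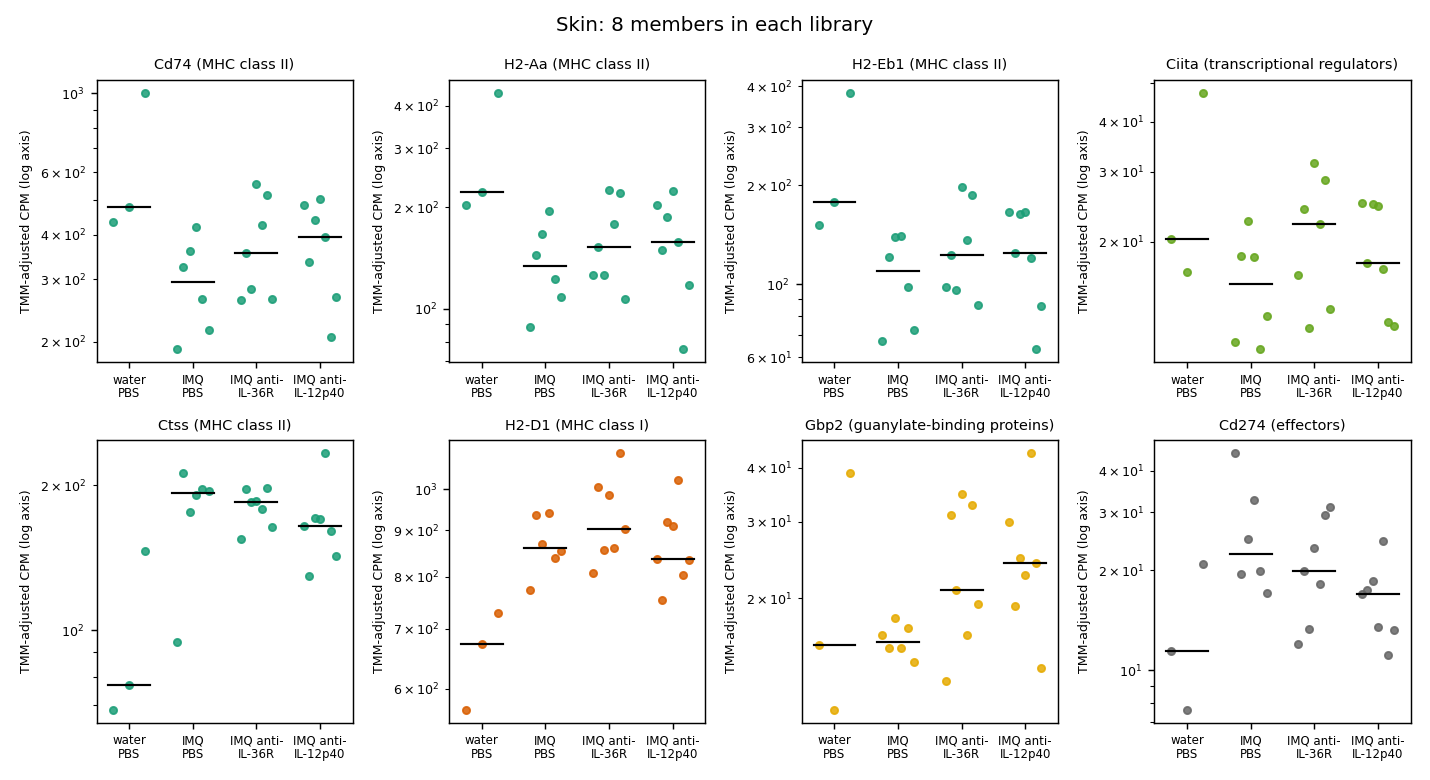
Level of 8 members in each skin library (points, TMM-adjusted CPM on a log axis), with the group median as a bar. For Cd74, H2-Aa and H2-Eb1 all 3 water libraries lie above the 6 IMQ libraries with PBS, and 1 water library is far above the other 2.

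None of the peptide loading, immunoproteasome, regulator, guanylate-binding and immunity-related GTPase members passed in skin (0 of 21). The GTPases had log2 fold changes of -0.49 to 0.64. Gbp2 measured 15.6, 11.1 and 38.9 CPM in water and 14.3 to 17.98 CPM under IMQ, so the IMQ libraries lay inside the water range. Iigp1 (8.17, 5.82 and 23.1 CPM in water, 8.05 to 12.6 CPM under IMQ), Tap1 (49.9, 50.7 and 81.6 against 44.4 to 66.8 CPM) and Psmb9 (8.99, 10.3 and 16.3 against 8.61 to 13.6 CPM) overlapped in the same way. Water replicate 3 set the top of each of these ranges. The mean log2 CPM of the immunity-related GTPases was 2.04, 2.44 and 4.08 in water replicates 1 to 3 and 2.97 to 3.37 under IMQ. That of the guanylate-binding proteins was 3.20, 2.66 and 4.43 in water and 3.15 to 3.65 under IMQ. Nlrc5 had 49.8, 68.8 and 79.6 CPM in water and 51.0 to 80.8 CPM under IMQ. Ido1 stayed at or below 0.156 CPM in every skin library and was not tested.

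The wider pathway in skin showed no rise of the chemokine genes of the response. Ifng was at most 0.203 CPM in every skin library and was too low to test. Cxcl9 and Cxcl10 had log2 fold changes of -0.37 and -0.89 and were not called. Of 12 source and receptor genes tested, Ifngr1 (0.60), Jak1 (0.28), Jak2 (0.42) and Socs1 (0.99) rose and Il18 (-1.22) and Il12rb2 (-2.45) fell. Of 11 further class II genes 5 fell, among them H2-Oa (-2.39) and H2-Ob (-1.90), which restrain peptide exchange, and the class II beta chain gene H2-Eb2 (-2.05), and 2 rose, the lysosomal proteases Lgmn (1.19) and Ctsl (0.59). None of 11 further GTPases and none of 18 genes stimulated by type I interferons passed. Of 13 chemokine and other induced genes tested 3 rose, and 3 of the 15 other proteasome genes rose, by at most 0.29. Of 15 further class I genes 3 rose (Calr, H2-Q10 and Pdia3) and 2 fell (Cd1d1 and Tapbpl).

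The difference between the tissues was tested directly in a fit of both, as the skin fold change minus the colon fold change. Of 32 members, 25 had a lower response in skin and 0 a higher one, where 14.4% and 10.4% of 14477 genes did so. The median difference of the members was -2.19 on the log2 scale, against 0.03 for all genes. The largest differences were those of Iigp1 (-4.43, SE 0.937, adjusted p = 0.00052), Tgtp1 (-4.09, SE 1.40, adjusted p = 0.027), Gbp5 (-3.97, SE 0.781, adjusted p = 0.000224), Nlrc5 (-3.86, SE 0.586, adjusted p = 5.40e-06), Cd74 (-3.46, SE 0.62, adjusted p = 7.48e-05) and H2-Aa (-3.41, SE 0.651, adjusted p = 0.000149). Ctss was the sole member with a difference above 0 (0.42, adjusted p = 0.282). Without skin water replicate 3 the count was 13 (12 lower and 1 higher), and without the 2 colon libraries that stood apart it was 21. Tissue, inflaming agent and table coincide in this design and cannot be told apart.

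Under anti-IL-36R in the DSS colon, every member had a log2 fold change against PBS below 0 but none passed the test. All 33 log2 fold changes were below 0, against 49.2% of all genes, with a median of -0.70 and a range of -1.61 to -0.05, against a median of 0.00 for all genes. Not every group median was lower: that of Psmb10 was 72.5 CPM with PBS and 74.8 CPM with the antibody. Because members moved together across libraries, these signs, and those counted in the other comparisons, are not independent of each other. Of all genes 5.45% fell and 1.16% rose. At an unadjusted p under 0.05 there were 5 members of 33, against 23.2% of all genes, but that count ran from 2 to 25 as single libraries were left out. It was 25 without PBS replicate 2, 20 and 16 without antibody replicates 2 and 3, 15 without PBS replicate 4, 3 without antibody replicate 4 or 7, and 2 without antibody replicate 5 or 8 or PBS replicate 3 or 6. The smallest adjusted p-values were those of Cd274 (-1.11, SE 0.351, adjusted p = 0.0566), Gbp5 (-1.61, SE 0.51, adjusted p = 0.0574) and H2-D1 (-0.45, SE 0.197, adjusted p = 0.17).

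Gbp5 measured 43.7, 4.47, 54.5, 17.3, 111 and 112 CPM with PBS as given above and 7.90 to 30.1 CPM with anti-IL-36R, with a median of 17.8. No antibody library reached the 4 highest PBS libraries, and PBS replicate 2 lay below all 8 antibody libraries. Cd274 measured 12.4 to 95.8 CPM with PBS and 14.8 to 35.7 CPM with the antibody, and Iigp1 12.3 to 200 and 10.9 to 82.4 CPM. Cd74 ranged from 379 to 1711 CPM with the antibody, inside the PBS range of 133 to 2435 CPM. DESeq2 called Gbp5 (adjusted p = 0.0189) and Cd274 (adjusted p = 0.0233) lower, and limma-voom called 0. Without PBS replicate 2, the library with the lowest Cd3e, 5 members fell: Cd274 (-1.32), Gbp5 (-1.85), Ciita (-0.96), H2-Aa (-1.15) and H2-DMa (-1.05). Without PBS replicate 1 or replicate 4 there were 2, without antibody replicate 2 or replicate 3 there was 1, and without the 2 libraries that stood apart 0.

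Several other interferon gamma genes did fall under anti-IL-36R in colon. Of 14 induced chemokines and others 6 fell: Icam1 (-1.15, adjusted p = 0.00301) and Serpina3g (-1.86, adjusted p = 0.00254), whose antibody libraries were all below the PBS libraries (0.903% of all genes did not overlap), and Cxcl11 (-3.31), Nos2 (-2.18), the Fc receptor Fcgr1 (-1.27) and the costimulator Cd40 (-1.03). Stat4, the transcription factor of the interleukin-12 receptor, fell by 1.14 (adjusted p = 0.0382), H2-T24 by 1.12 and Marchf1 by 0.87. Cxcl10 was not called (-2.17, adjusted p = 0.0593), nor were Cxcl9 (-1.74) and Socs1 (-0.67), and Ifngr1 and Ifngr2 were at 0.18 and 0.12. Ifng measured 0.189, 1.13, 0.5 and 0.325 CPM in antibody replicates 1, 2, 3 and 6 and 0 in the other 4, and was not called (adjusted p = 0.0736). Neutrophil markers fell in 4 of 6 genes (summed 83.9 to 254 CPM with the antibody) and macrophage and monocyte markers in 2 of 7 (202 to 517 CPM), while none of 6 B cell and none of 9 T and NK cell markers passed. The part of these cells was not tested.

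With anti-IL-12p40 in the DSS colon, none of 33 members passed against PBS, where 1.13% of all genes fell and 0.0191% rose, and at an unadjusted p under 0.05 there was 1, against 12.1% of all genes (0 to 3 as single libraries were left out, with 3 without PBS replicate 2). DESeq2 and limma-voom also called 0. The log2 fold changes ranged from -0.88 to 0.09 with a median of -0.17, against 0.00 for all genes, and 31 were below 0. The smallest adjusted p-values were those of Cd274 (-0.83, 0.347), Gbp5 (-0.88, 0.519) and Ctss (-0.24, 0.548). The 7 libraries of this group did not behave alike: replicates 2 and 6 held the 2 highest values in 33 of 33 members, against 6.15% of all genes. Nlrc5 measured 88.1 and 87.4 CPM in them and 25.7 to 49.6 CPM in the other 5, and Iigp1 218 and 171 CPM against 12.9 to 49.1 CPM. The same replicates had 1.62 and 1.85 CPM of Ifng, and the other 5 at most 0.117 CPM. In the anti-IL-36R group replicates 2 and 3 held the 2 highest values in 29 of 33 members, against 4.55% of all genes.

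**Figure D4:**
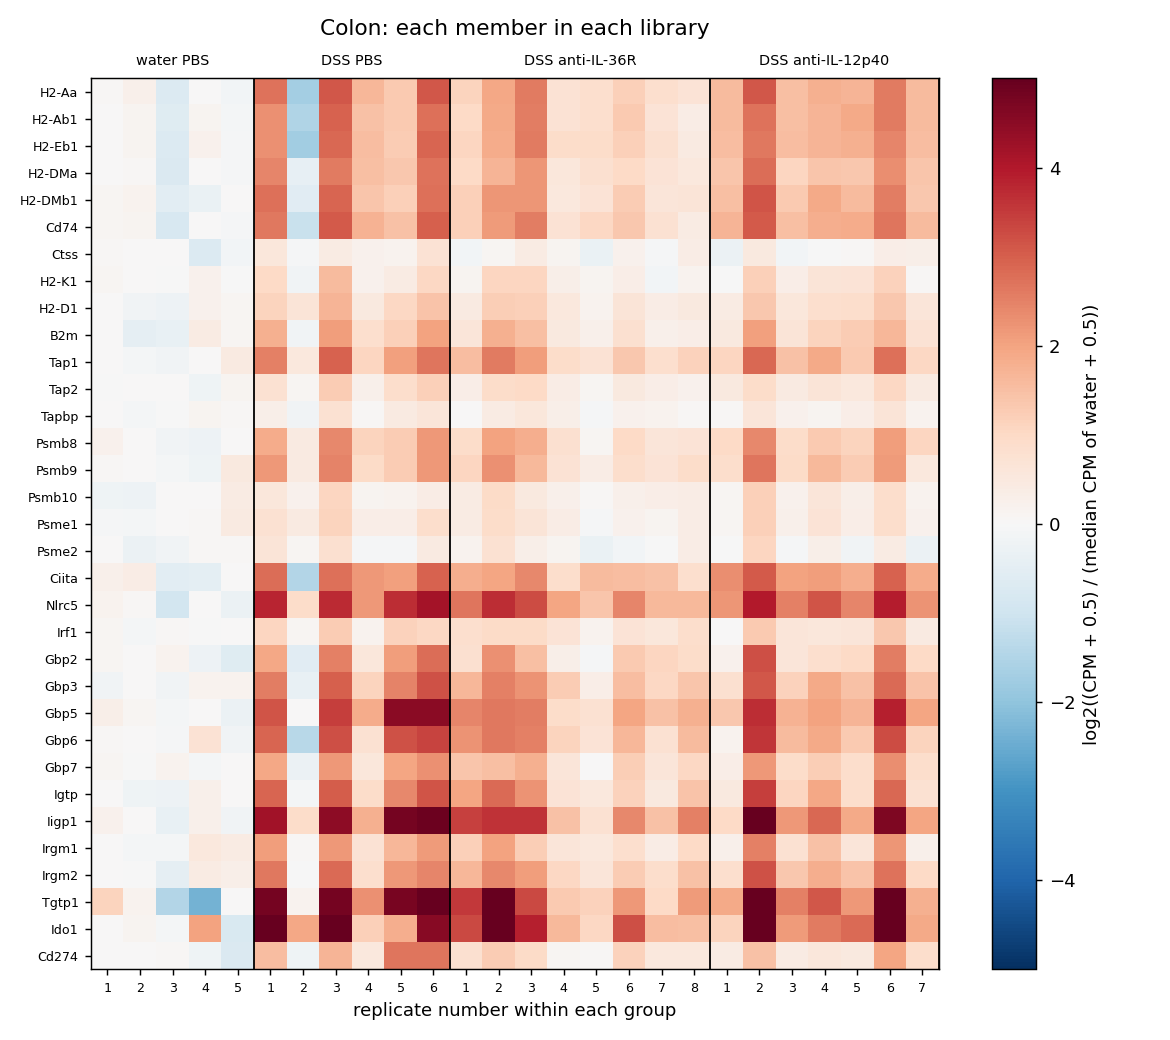
Each member (rows, grouped by role) in each colon library (columns, numbered within 4 groups), coloured by the log2 ratio of its CPM to the median of the water libraries, with 0.5 CPM added to both and colours saturated at the ends of the scale. DSS with PBS replicate 2 is pale or blue where replicates 1, 3 and 6 are red, and anti-IL-12p40 replicates 2 and 6 are the darkest of their group.

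The antibodies were also compared with each other in colon. All 33 fitted log2 differences were below 0 (lower with anti-IL-36R), with a median of -0.42, but group medians did not all go this way. Median summed levels were higher with anti-IL-36R for guanylate-binding proteins (214 against 189.2 CPM), immunity-related GTPases (198.5 against 183.7 CPM), the immunoproteasome and effectors. They were lower for the other roles, as for class II (1492 against 2346 CPM). Anti-IL-12p40 replicates 2 and 6 held the 2 highest values of their group in all 33 members. None passed, none had an unadjusted p under 0.05 (3.51% of all genes did, as did 7 members without anti-IL-36R replicate 3 and 5 without its replicate 2), and 0.00% of all genes were called. Neither DESeq2 nor limma-voom called a member. Ciita (-0.76), H2-DMb1 (-0.75) and H2-DMa (-0.63) had the smallest p-values, each with an adjusted p of 0.9997. The antibody comparisons with PBS use the same 6 PBS libraries, so their values are given side by side and not compared further.

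Both antibody groups were also set against water in colon, and many members were higher in each. With anti-IL-36R, 13 of 33 members rose against the same 5 water libraries, where 6.92% of all genes rose and 3.01% fell, and the median log2 fold change was 1.35 against -0.02 for all genes. The largest were Tgtp1 (3.49, SE 1.06, adjusted p = 0.0371), Nlrc5 (2.84, SE 0.534, adjusted p = 0.00165), Iigp1 (2.83, SE 0.768, adjusted p = 0.0203), Gbp5 (2.05, SE 0.607, adjusted p = 0.0322), Ciita (1.70, SE 0.441, adjusted p = 0.0154) and Gbp3 (1.69, SE 0.489, adjusted p = 0.0292). Libraries did not overlap for 15 members, against 6.04% of all genes. The count rested on single libraries: it was 2 without water replicate 3, 3 without water replicate 2 or 5, 4 without water replicate 1, 8 without water replicate 4, 4 without antibody replicate 3 and 5 without antibody replicate 2. Without the 2 libraries that stood apart it was 10, and with these 2 groups alone in the fit it was 27.

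With anti-IL-12p40, 27 members rose against water, where 10.8% of all genes rose and 6.40% fell, and the median was 1.91 against -0.03 for all genes. Tgtp1 (4.37), Ido1 (3.89), Iigp1 (3.61), Nlrc5 (3.39), Gbp5 (2.78) and Ciita (2.46) rose most. Libraries did not overlap for 23 members, against 10.9% of all genes, and the count was 23 to 28 as each library was left out and 26 without the 2 libraries that stood apart. Cd74 measured 819 to 2388 CPM in this group, wholly above the 166 to 316 CPM of water. H2-K1, Ctss, Tapbp, Psmb10, Psme1 and Psme2 did not pass.

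Under both antibodies in IMQ skin most members were higher than with PBS, and again none passed. With anti-IL-36R, 31 of 32 log2 fold changes were above 0, against 50.1% of all genes, with a median of 0.33 against 0.00 and a range of -0.33 to 0.88. Of all genes 3.29% rose and 0.919% fell, and 15 of 32 members had an unadjusted p under 0.05, against 21.4% of all genes. That count was 7 without PBS replicate 1, 9 without antibody replicate 2, 5 without antibody replicate 4 or 6, 2 with PBS replicates 1 to 3 alone and 6 with PBS replicates 4 to 6 alone. The smallest adjusted p-values were those of Tap1 (0.45, SE 0.145, adjusted p = 0.0771), Irgm1 (0.46, SE 0.158, adjusted p = 0.0998) and Nlrc5 (0.32, SE 0.115, adjusted p = 0.117). Tap1 measured 44.4 to 66.8 CPM with PBS and 56.3 to 89.5 CPM with the antibody, and 3 of the 7 antibody libraries, at 88.8 to 89.5 CPM, were above all PBS libraries. Limma-voom called 6 members higher (B2m, Iigp1, Irgm1, Nlrc5, Tap1 and Tapbp) and DESeq2 1 (Tap1). Without PBS replicate 1, which held the highest Nlrc5 value of its group (80.8 CPM against 51.0 to 57.8), Nlrc5 passed (0.41, adjusted p = 0.0193), and without antibody replicate 1 Tap1 did (0.51, adjusted p = 0.0438).

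Cd274 was the sole member below 0 in that comparison, at -0.33. The guanylate-binding proteins ranged from 0.47 to 0.59 and the immunity-related GTPases from 0.31 to 0.88. Iigp1 measured 8.05 to 12.6 CPM with PBS and 6.30 to 31.3 CPM with anti-IL-36R, where 6 of 7 libraries were above all PBS libraries and replicate 1 was below them. The class II member Cd74, at 262 to 557 CPM against 191 to 421 CPM, had a log2 fold change of 0.36 (adjusted p = 0.426). Dendritic and Langerhans cell markers rose in 3 of 8 genes (Flt3, Itgax and Clec9a), with a summed level of 27.3 to 58.6 CPM against 12.6 to 31.1 CPM with PBS, and the part of these cells was not tested. Of the wider pathway, Tapbpl (0.47, adjusted p = 0.00467) and H2-T22 (0.76, adjusted p = 0.0116), both of class I presentation, and the cytokine gene Il18 (0.97, adjusted p = 0.008) rose.

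With anti-IL-12p40 in skin, 26 of 32 members were above 0, against 52.7% of all genes, with a median of 0.26 against 0.01 and a range of -0.68 to 0.66. None passed, where 5.31% of all genes rose and 3.49% fell, and 5 had an unadjusted p under 0.05, against 25.3% of all genes (2 without PBS replicate 1 or antibody replicate 5, and 3 without PBS replicate 5). The smallest adjusted p-values were those of Cd274 (-0.68, SE 0.266, adjusted p = 0.11), H2-DMa (0.52, adjusted p = 0.13) and Tapbp (0.29, adjusted p = 0.135). Cd274 measured 17.1 to 45.1 CPM with PBS and 11.1 to 24.5 CPM with the antibody, in overlapping ranges. With these 2 groups alone in the fit Gbp2 (0.66, adjusted p = 0.0456) and Tapbp passed, limma-voom called Nlrc5 and Tapbp, DESeq2 called 0, and without PBS replicate 1 Nlrc5 passed (0.36, adjusted p = 0.0289). Socs1, the feedback inhibitor of the receptor, fell by 1.25 (adjusted p = 0.00441), from a mean of 11.3 CPM to 4.75 CPM with no overlap (as for 3.77% of all genes), and Il18, Stat4, Il12rb2 and Tapbpl rose. Dendritic cell markers rose in 4 of 8 genes (summed 25.6 to 55.8 CPM) and T and NK cell markers in 2 of 8 (18.2 to 32.4 CPM).

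**Figure D5:**
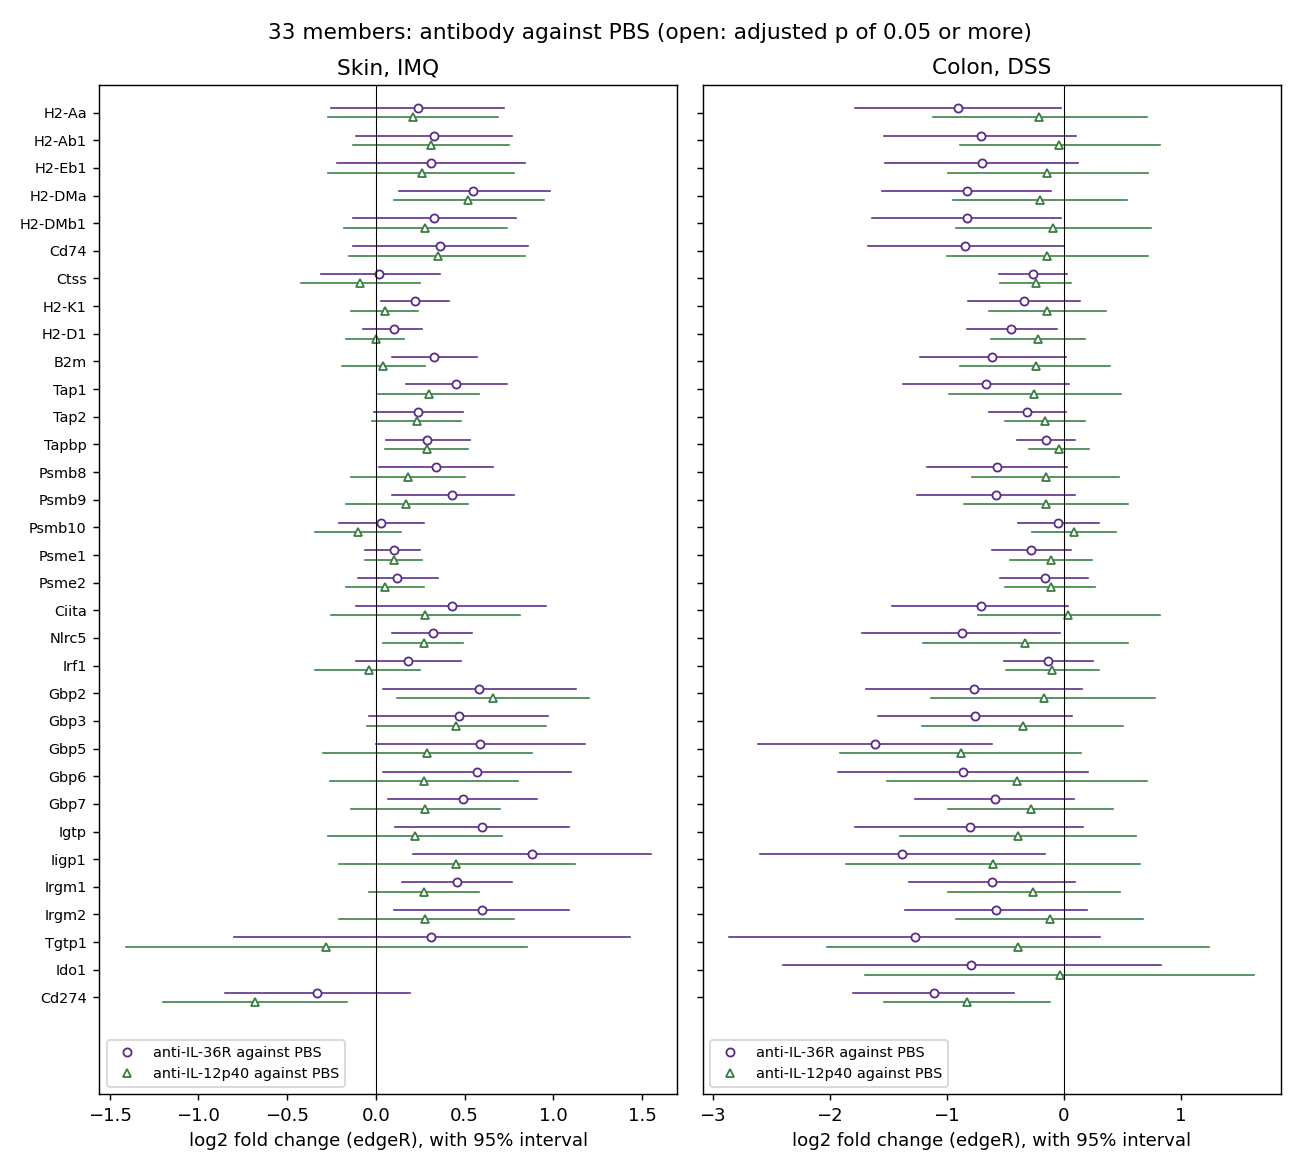
Log2 fold change (x axis, edgeR, bars are 95% intervals) of each member for each antibody against PBS, in IMQ skin on the left and DSS colon on the right, on separate scales. All symbols are open because no member passed, with medians of 0.33 and 0.26 in skin and -0.70 and -0.17 in colon for anti-IL-36R and anti-IL-12p40.

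Between the antibodies in skin, 30 of 32 fitted log2 differences were above 0 (higher with anti-IL-36R), with a median of 0.14, but group medians did not all go this way. Median summed levels were lower with anti-IL-36R for class II (1045 against 1114 CPM with anti-IL-12p40), peptide loading (218.1 against 228 CPM) and the regulators. They were higher for the other roles, as for immunity-related GTPases (68.62 against 53.35 CPM). None passed, 0.0130% of all genes were higher and 0.0326% lower, and only B2m (0.29, adjusted p = 0.791) had an unadjusted p under 0.05, where 5.31% of all genes did (0 to 4 members as single libraries were left out, with 4 without anti-IL-12p40 replicate 5). H2-K1 (0.17) and Igtp (0.38) followed, with an adjusted p of 0.9998. Neither DESeq2 nor limma-voom called a member.

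The antibody groups of skin were also set against water. With anti-IL-36R 4 members rose, B2m (0.74, SE 0.156, adjusted p = 0.00501), H2-D1 (0.50, SE 0.107, adjusted p = 0.00522), Ctss (0.89, SE 0.224, adjusted p = 0.0128) and H2-K1 (0.46, SE 0.123, adjusted p = 0.0176), where 5.97% of all genes rose and 7.17% fell. The median of the members was 0.20. The count was 11 without water replicate 3, 1 without water replicate 1 and 7, of which 3 fell, without antibody replicate 4. B2m measured 426, 494 and 587 CPM in water and 675 to 1017 CPM with anti-IL-36R. With anti-IL-12p40 Ctss (0.78, adjusted p = 0.0446) and H2-D1 (0.40, adjusted p = 0.0329) rose, where 2.41% of all genes rose and 2.39% fell. That count fell to 0 without antibody replicate 4 or 5 or water replicate 1 or 2, and to 1 without antibody replicate 1, 3, 6 or 7. The class II genes that fell with PBS were not called in either antibody group, at -0.75 and -0.76 for Cd74 and -0.84 and -0.90 for H2-Eb1. These comparisons share the 3 water libraries with the IMQ comparison.

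The response to anti-IL-36R differed between the tissues in 1 member by the direct test. Gbp5 had a skin minus colon difference of 2.17 (SE 0.641, adjusted p = 0.0356), its fold change being 0.59 in skin and -1.61 in colon, where 4.40% of all genes had a higher and 1.19% a lower response in skin. All 32 differences were above 0, against 47.7% of all genes, the median was 1.05 against -0.02, and 23 had an unadjusted p under 0.05, against 21.02% of all genes (12 without DSS with PBS replicate 6 and 8 without replicate 3). Limma-voom called B2m and H2-DMa and not Gbp5, and DESeq2 called Gbp5, H2-DMa and Iigp1. H2-DMa (1.37, adjusted p = 0.063) and Iigp1 (2.23, adjusted p = 0.0742) had the next smallest adjusted p-values. Without DSS with PBS replicate 2 the count was 16, with Gbp5 (2.41), Iigp1 (2.47) and H2-DMa (1.59) among them. It was 3 without DSS with PBS replicate 4, without anti-IL-36R replicate 2 or 3 of colon or without replicate 1 of skin. It was 0 without any 1 of colon anti-IL-36R replicates 4, 5 and 8, DSS with PBS replicates 5 and 6, skin anti-IL-36R replicates 2, 4 and 6, and IMQ with PBS replicates 1 and 2. For anti-IL-12p40 none of 32 members differed between tissues and none had an unadjusted p under 0.05 (5 without colon anti-IL-12p40 replicate 2 or DSS with PBS replicate 2; 14.7% of all genes did, and 1.41% were called higher and 0.408% lower), with a median difference of 0.35 and 0 calls by DESeq2 and limma-voom. Gbp5 (1.14, adjusted p = 0.427), Tapbp (0.31, 0.449) and Tap2 (0.36, 0.474) had the smallest adjusted p-values.

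For 1 or more genes of each role the antibody groups not yet given were as follows. In class II, Cd74 measured 206 to 505 CPM (median 395) with anti-IL-12p40 in skin, inside the range of 262 to 557 CPM of the other antibody but for its lowest library. In class I, H2-D1 measured 808 to 1097 CPM (median 904) with anti-IL-36R and 753 to 1024 CPM (median 836) with anti-IL-12p40 in skin, all above the 729 CPM of the highest water library. In colon it measured 501 to 1063 CPM (median 632) and 602 to 1153 CPM (median 804). The lowest of these overlapped the highest water library of colon, at 513 CPM, with anti-IL-36R alone.

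Tap1, for peptide loading, measured 48.7 to 75.2 CPM (median 65.4) with anti-IL-12p40 in skin, and 41.9 to 154 CPM (median 60.8) and 52.3 to 188 CPM (median 71.2) with anti-IL-36R and anti-IL-12p40 in colon. Both colon ranges were wholly above water. Psmb9, of the immunoproteasome, measured 10.8 to 20.5 CPM (median 13.6) and 9.11 to 15.8 CPM (median 12.7) in skin and 15.7 to 60.1 CPM (median 22.6) and 17.6 to 78.4 CPM (median 29.4) in colon. Only anti-IL-12p40 in colon cleared the water libraries for this gene. Nlrc5 measured 64.7 to 88.2 CPM and 56.6 to 79.6 CPM in skin and 14.6 to 74.1 CPM with anti-IL-36R in colon, where all 8 libraries were above water.

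Gbp5 measured 2.94, 2.32 and 10.9 CPM in skin with water, 3.50 to 5.82 CPM under IMQ with PBS, 3.01 to 9.64 CPM with anti-IL-36R and 3.39 to 7.26 CPM with anti-IL-12p40. All 3 IMQ groups lay within the water range, but replicate 3 alone set its top, and every IMQ library was above the 2.94 and 2.32 CPM of the other water libraries. In colon it measured 12.01 to 71.9 CPM (median 18.8) with anti-IL-12p40. Iigp1, of the immunity-related GTPases, measured 9.25 to 27.7 CPM (median 10.9) with anti-IL-12p40 in skin, where 3 of the 7 libraries were above every IMQ library with PBS. Cd274, of the effectors, measured 11.98 to 31.0 CPM (median 19.9) with anti-IL-36R in skin, and in colon 8.42 to 15.2 CPM with water and 19.3 to 58.0 CPM (median 21.3) with anti-IL-12p40.

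Levels per kilobase of exon allow the members to be ordered within a tissue, and the 2 tables were scaled separately. In water-treated colon the light chain B2m was the most abundant, with a median of 351 CPM per kilobase, followed by Ctss (212), H2-K1 (199), H2-D1 (173) and Cd74 (171), and Ido1 (0.372), Nlrc5 (0.616), Tgtp1 (0.642) and Gbp5 (0.671) were the least abundant. In water-treated skin the order began with B2m (575), Cd74 (285), H2-D1 (261), H2-K1 (223) and H2-Eb1 (91.3). The median of Cd74 in colon was 816 CPM per kilobase under DSS with PBS, 369 with anti-IL-36R and 596 with anti-IL-12p40, and in skin it was 175, 212 and 235 in the matching groups. That of Nlrc5 was 8.76, 3.08 and 3.79 in the colon groups and 6.36, 8.28 and 8.37 in skin, against 0.616 in colon with water and 8.10 in skin with water.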

How the data were processed

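Messenger RNA from 23 skin and 26 colon libraries had been sequenced. Per the labels' protocols, RNA was extracted with MagMAX reagents, poly(A) RNA was selected on Dynabeads and libraries were made with a strand-specific ScriptSeq kit. The deposited values are the authors' estimated counts per Entrez gene, made with RSEM on mm10 per the submitters' processing notes (the version and aligner are not given in the sources used here). Of the values, 16.69% in skin and 17.33% in colon were not whole, and all were rounded to whole numbers. Library totals ranged from 14720000 to 19680000, and 0 columns of per-sample values were left unused. No 2 libraries were identical.

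Each tissue was fitted with all its groups in edgeR 4.0.16 (R 4.3.3): genes were filtered by filterByExpr, scaled by TMM (factors of 0.833 to 1.08 in skin and 0.91 to 1.09 in colon) and tested by the quasi-likelihood F test, with p-values adjusted by Benjamini-Hochberg over all genes and called under 0.05. Tissue differences came from 1 joint fit. Intervals are the fold change plus or minus 1.96 SE. Libraries were grouped by their labels. Symbols matched 24375 of 24475 gene IDs. Promoters were taken from RefSeq, and H2-Ab1, Cd74, Tap2, Ciita, Nlrc5, Gbp6, Iigp1 and Ido1 had none in the table. The method was tested on simulated data. Alternatives were DESeq2 1.42.0, limma 3.58.1 (voom with sample weights), DESeq2's size factors, no filter, the compared groups alone, and leaving out libraries. Figures were drawn with matplotlib 3.10.9 in Python 3.11.15.

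Named genes are the 6 largest rises and falls among called members in each comparison, the 3 smallest adjusted p-values where fewer than 2 were called, 1 or more genes of each role in every group, and a few set genes and up to 4 called genes of each comparison list. Others named beside them (such as single genes of a count) were chosen after their values were seen. The members, comparison lists and marker lists were chosen with earlier results of these data known. Some genes of these lists are not reported here by name.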

Additional observations from a re-analysis of the deposited data

Results flagged for a closer look

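Within groups of 4 to 8 libraries, 1 library stood far from the others by Dixon's test at the 95% level in 19 of 231 gene and group pairs examined (8.23%), where chance flags about 1 in 20. In colon with anti-IL-36R, replicate 2 was the high library for Gbp2 (178.2 CPM, others 35.12 to 102.8), Ido1 (39.19, others 1.893 to 17.16), Irgm1 (122.1, others 38.94 to 70.88), Psmb10 (115.2, others 60.65 to 83.1) and Tgtp1 (90.02, others 4.591 to 29.19). In colon with anti-IL-12p40, replicate 2 was high for Psme2 (195.4 CPM, others 75.1 to 123.4).

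Among the colon water libraries, replicate 3 was low for Cd74 (165.8 CPM, others 273.9 to 316.1) and H2-DMa (6.458, others 10.6 to 11.48). Replicate 4, the Muc2-rich library, was high for Gbp6 (15.47 CPM, others 7.982 to 9.436) and Ido1 (4.239, others 0.1871 to 0.7878), and replicate 5 was high for Psme1 (114.9, others 77.71 to 88.38).

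In skin with anti-IL-12p40, replicate 5 was high for B2m (922.1 CPM, others 576.5 to 714.7), Ctss (233, others 129.7 to 170.7) and Igtp (18.47, others 7.77 to 11.65). Under IMQ with PBS, replicate 1 was low for Ctss (94.66 CPM, others 176.2 to 212.3) and Irgm2 (9.9, others 14.15 to 16.26) and high for Nlrc5 (80.76, others 51.02 to 57.84), and replicate 3 was high for Tapbp (103.8, others 81.3 to 86.15). With anti-IL-36R, replicate 1 was low for Psmb10 (15.05 CPM, others 19.14 to 21.77).

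The test of the skin minus colon difference passed for 25 members in the response to the inflaming agent and for 1 in the response to anti-IL-36R, by edgeR's quasi-likelihood test with Benjamini-Hochberg adjustment. On the log2 scale the differences in class II genes were -3.46 for Cd74, -3.41 for H2-Aa, -3.26 for H2-Eb1, -3.14 for H2-Ab1, -3.01 for H2-DMa and -2.76 for H2-DMb1. In class I, loading and immunoproteasome genes they were -0.70 for H2-D1, -2.31 for Tap1, -1.0 for Tap2, -0.62 for Tapbp, -1.53 for Psmb8 and -1.76 for Psmb9. The regulators gave -3.86 for Nlrc5, -3.22 for Ciita and -0.86 for Irf1. The guanylate-binding proteins gave -3.97 for Gbp5, -3.03 for Gbp6, -2.56 for Gbp3, -2.45 for Gbp2 and -1.53 for Gbp7, and the immunity-related GTPases -4.43 for Iigp1, -4.09 for Tgtp1, -2.73 for Igtp, -2.07 for Irgm2 and -1.77 for Irgm1. The difference under anti-IL-36R was 2.17 for Gbp5. Tissue and agent cannot be told apart in these values.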

How the results depend on the processing

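Over all comparisons, 133 named gene results were refitted under each alternative of their comparison, which gave 2623 values: 2374 kept direction and call, 220 lost the call, 29 gained it and 0 reversed. Counts of called members that moved by over 1.5 times were as follows. With DESeq2, 2 members passed for anti-IL-36R against PBS in colon and 1 in skin (0 and 0 in the reported fit), 23 for anti-IL-36R against water in colon (13), and 3 for the tissue difference under anti-IL-36R (1). With limma-voom, 22 passed for anti-IL-36R against water in colon, 2 for the tissue difference under anti-IL-36R (without Gbp5), 16 for that under the inflaming agent (25), 6 for anti-IL-36R against PBS in skin, 2 for anti-IL-12p40 against PBS in skin (0) and 5 for IMQ against water (4 rises and 1 fall, against 3 and 5). With the compared groups alone, 27 passed for anti-IL-36R against water in colon, 2 for anti-IL-12p40 against PBS in skin and 0 for anti-IL-12p40 against water in skin (2), for which 1 passed with no filter. IMQ replicates 4 to 6 alone gave 5 against water. The cause was not tested.

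Leaving out 1 library at a time gave, in colon, 28 to 31 called members for DSS against water, 0 to 5 and 0 to 0 for anti-IL-36R and anti-IL-12p40 against PBS, 2 to 16 and 23 to 28 for them against water, and, in skin, 6 to 9 for IMQ against water, 0 to 1 and 0 to 1 for the antibodies against PBS, and 1 to 11 and 0 to 2 against water. It gave 0 to 0 between the antibodies in both tissues, and 13 to 27, 0 to 16 and 0 to 0 for the tissue differences under the inflaming agent, anti-IL-36R and anti-IL-12p40. Leaving out the 2 colon libraries that stood apart was chosen after seeing the data. Depth limits Ifng and, in skin, Ido1, which had too few counts to test there. No paired analysis was possible because the replicate numbers were given in accession order and the labels share none across groups.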
